A study of Homo sapiens with 4 samples.

Results

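The goblet secretory genes described here are REG4, the trefoil factors TFF1, TFF2 and TFF3, SPINK4, AGR2, AGR3, SPDEF, FCGBP and CLCA1, 10 genes of the 58825 gene rows counted in the RNA sequencing of LoVo cells. They were selected on their counts in MET+ and MET-KO cells, with earlier results of the same libraries known, so their own difference between the groups is given as a description and carries no test. LoVo is a human line established from a colon adenocarcinoma, in which the receptor tyrosine kinase MET stays uncleaved and constantly phosphorylated without its ligand. MET+ cells are LoVo cells labelled wild type, whose sample descriptions name a GFP control. By the study's methods, MET-KO cells were made from LoVo by CRISPR/Cas9 editing of MET with puromycin selection and picking of single clones, and the sources used here do not say which clone or clones were sequenced. Each group had 2 libraries, labelled as biological replicates, and nothing states that they came from separate cultures, so every p-value below measures the spread between these samples only.

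Goblet cells are the mucus-secreting cells of the intestinal epithelium. They load the gel-forming mucin MUC2 into granules together with small disulfide-bonded proteins, the trefoil factors, which protect and help repair the mucosa, and with FCGBP and CLCA1, which are large components and processing factors of mucus. AGR2 and AGR3 belong to the protein disulfide isomerases of the endoplasmic reticulum, and AGR2 is needed for mucin folding. REG4 is a secreted C-type lectin, SPINK4 a secreted Kazal-type protein, and SPDEF an ETS family transcription factor that drives the last steps of goblet cell differentiation. Colorectal tumours often keep or gain parts of this set.

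The promoters of REG4, AGR2 and AGR3 are shown first, because the counts below separate the first 2, the most abundant genes of the set, from AGR3. The promoter stretches are the 250 bases before the RefSeq start on GRCh38.p14, written 5′ to 3′ on the strand of the gene. REG4 lies at chr1:119811461-119811710, AGR2 at chr7:16805000-16805249 and AGR3 at chr7:16881984-16882233, all on the minus strand. The AGR2 stretch lies inside the GENCODE span of the gene, 16791811 to 16833433, so its RefSeq start differs from the GENCODE start. Gaps and distances between genes below use the GENCODE spans. Capitals mark matches on either strand to 8 short motifs that are spelled out further on.
REG4: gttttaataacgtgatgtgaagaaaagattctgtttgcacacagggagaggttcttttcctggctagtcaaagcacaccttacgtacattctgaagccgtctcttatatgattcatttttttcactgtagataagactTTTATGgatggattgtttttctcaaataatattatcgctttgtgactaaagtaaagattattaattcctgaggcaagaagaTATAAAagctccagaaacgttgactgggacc
AGR2: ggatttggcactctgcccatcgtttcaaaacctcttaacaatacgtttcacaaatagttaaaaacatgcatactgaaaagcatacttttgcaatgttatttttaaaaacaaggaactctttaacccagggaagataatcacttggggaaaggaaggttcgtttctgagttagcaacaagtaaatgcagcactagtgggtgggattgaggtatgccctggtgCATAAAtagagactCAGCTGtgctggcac
AGR3: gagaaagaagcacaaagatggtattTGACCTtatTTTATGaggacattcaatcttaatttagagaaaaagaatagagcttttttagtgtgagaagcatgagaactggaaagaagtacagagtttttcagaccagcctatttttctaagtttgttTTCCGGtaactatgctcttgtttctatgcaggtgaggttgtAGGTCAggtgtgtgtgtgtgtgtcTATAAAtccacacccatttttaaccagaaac
The promoters of TFF1, TFF2 and TFF3 were not analysed here.

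The 4 libraries were made by the QuantSeq 3' method, which reads transcripts at their 3' ends, so a count does not grow with transcript length and levels of different genes can be compared in CPM, the counts scaled to a common library size after TMM normalisation. They held 8429142 to 10286552 counts, and 3 counts, taken as the upper limit behind any count of 0, stood for 0.276 to 0.362 CPM. These limits and the count intervals below cover counting error only, since copies made by PCR are not separated. MET itself had 2794 and 3272 counts in MET+ and 861 and 965 in MET-KO libraries, so the libraries labelled MET knock out still held MET mRNA, which a 3' read counts whether or not it carries the edit. The study reported loss of MET protein in its MET-KO cells by western blot and immunofluorescence, and lower MET mRNA in its RNA sequencing. Of 10 markers of colon epithelium, 8 were above 3 counts in both MET+ libraries and 3 in both MET-KO libraries. CDX2, the homeobox factor of the intestinal lineage, and EPCAM, an epithelial adhesion protein, were counted in all 4 libraries, while CDH17, CEACAM5 and GPA33 were at 0 in both MET-KO libraries and KRT20 was at 0 in both MET+ libraries. Besides, 8 of 45 protein-coding genes of the Y chromosome had at least 10 counts in both libraries of 1 group and 0 in both of the other, a difference the labels do not describe. With these markers, these genes and the whole-chromosome shift given further on, it is in doubt whether both groups of libraries stem from the same LoVo stock, which was not tested, and every MET-KO against MET+ value below is a difference between libraries so labelled. An effect of MET and any other lasting difference between the sequenced cell populations cannot be told apart in this design, and neither can fewer cells of a type and less RNA per cell.

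REG4 (ENSG00000134193, chromosome 1, 119794018 to 119811660 on GRCh38) held nearly all the reads of the set. MET+ libraries held 6887 and 8211 of its reads, and MET-KO libraries held 0 and 0. In CPM this was 836 ± 7.45 (SD, n = 2) in MET+ cells, from 831 and 841 in the single libraries, so the replicates differed little and the groups lay far apart. Set against this limit of 3 counts per library, REG4 was at least 2937-fold higher in MET+ than in MET-KO cells. In the MET+ libraries it ranked 148 among 18161 and 146 among 17849 genes with a count, and it took 0.0817% and 0.0798% of all counts. The 10 genes together had 7299 and 8708 counts in MET+ libraries, of which REG4 gave 94.4% and 94.3%. The same 10 genes had 11 and 34 counts in MET-KO libraries.

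AGR2 (ENSG00000106541, chromosome 7, 16791811 to 16833433) showed the same contrast at a lower level. Its counts were 369 and 432 in MET+ libraries and 0 in both MET-KO libraries. The MET+ level was 44.4 ± 0.176 CPM (SD, n = 2), at least 156-fold above the limit for MET-KO cells, and AGR2 ranked 3636 and 3649 among the genes of the MET+ libraries. AGR3 (ENSG00000173467), which lies 26.0 kb from AGR2 on the same strand, had 0 counts in all 4 libraries, which allows up to 0.362 CPM. The neighbouring paralogs therefore differed in MET+ cells, where AGR2 was measured and AGR3 was not detectable at this depth.

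The trefoil genes lie in a row of 54.9 kb on chromosome 21, with 30.7 kb between TFF3 and TFF2 and 11.2 kb between TFF2 and TFF1, all on the minus strand. TFF1 (ENSG00000160182, 42362282 to 42366594), the trefoil factor best known from gastric mucous cells, had 31 and 43 counts in MET+ libraries and 0 and 0 in MET-KO libraries. This was 4.07 ± 0.471 CPM (SD, n = 2) in MET+ cells, by the limit of 3 counts at least 14.3-fold higher than in MET-KO cells. TFF2 (ENSG00000160181), which carries a pair of trefoil domains, had 5 and 6 counts in MET+ and 2 and 11 in MET-KO libraries. The groups overlapped, and the ratio of the summed counts, scaled for depth, was 1.01 in MET-KO over MET+ (exact 95% interval 0.418 to 2.49). It turned to 0.321 without the second MET-KO library and was 1.66 without the first. TFF3 (ENSG00000160180), the trefoil factor of intestinal goblet cells, was at 0 in all 4 libraries. The order in MET+ cells was thus TFF1 above TFF2 on the CPM scale, with TFF3 not detected, and in MET-KO cells TFF2 was the only 1 of the 3 with a count.

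The other secretory genes stayed at the edge of detection. SPINK4 (ENSG00000122711, chromosome 9) had 4 and 6 counts in MET+ and 2 and 2 in MET-KO libraries, a ratio of 0.342 in MET-KO over MET+ (exact 95% interval 0.0784 to 1.19). SPDEF (ENSG00000124664, chromosome 6) had 2 and 4 counts in MET+ and 0 and 0 in MET-KO libraries, around the limit of 3 counts, so no fold is given. Both genes were lower in number in MET-KO libraries, with counts too few to set them apart from the limit or from each other.
FCGBP (ENSG00000275395, chromosome 19) had more counts in both MET-KO libraries than in either MET+ library. It had 1 and 6 counts in MET+ and 7 and 21 in MET-KO libraries, a ratio of 3.42 (exact 95% interval 1.46 to 9.28). The groups touched, at 6 against 7 counts, and the ratio depended on single libraries. It was 11.0 without the second MET+ library, 2.16 without the first, 1.77 without the second MET-KO library and 4.98 without the first. CLCA1 (ENSG00000016490, chromosome 1), a secreted metalloprotease of mucus, had 0 counts in all 4 libraries. With TFF3 and CLCA1 at 0 and FCGBP, SPDEF and SPINK4 near it, the word goblet names the gene list here and not the identity of the cells.

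Of the 10 genes, 3 passed the filter on low counts, REG4, AGR2 and TFF1, and all 3 were called lower in MET-KO cells by edgeR's quasi-likelihood test at an adjusted p under 0.05, where 26.9% of the 13801 tested genes were called lower, 27.2% higher and 54.1% in either direction. These 3 calls rest on the contrast that chose the genes and on passing the filter through the MET+ group alone, and nothing is read from them. The other 7 could not be tested: 4 had counts of at most 21 in a library and 3 had none. Genes that went from clear expression to the limit of detection are counted for description only. REG4, AGR2 and TFF1 were chosen on this same difference, so their place among such genes gives no support. The threshold of 30 counts was not planned, and TFF1, at 31 and 43 counts in MET+ libraries, just passes it. Among 10638 genes with at least 30 counts in both MET+ libraries, 103 (0.968%) had 3 counts or fewer in both MET-KO libraries, and REG4, AGR2 and TFF1 were among them. By the MET+ level in CPM, REG4 was second of the 103 after S100P, a calcium-binding protein, AGR2 was at rank 15 and TFF1 at rank 98. Of the 103 genes, 58 were at 0 in both MET-KO libraries, and REG4 had the highest MET+ level of these. In the other direction, 1.51% of 11364 genes with at least 30 counts in both MET-KO libraries had 3 counts or fewer in both MET+ libraries, and none of the 10 genes was in that group.

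**Figure D1:**
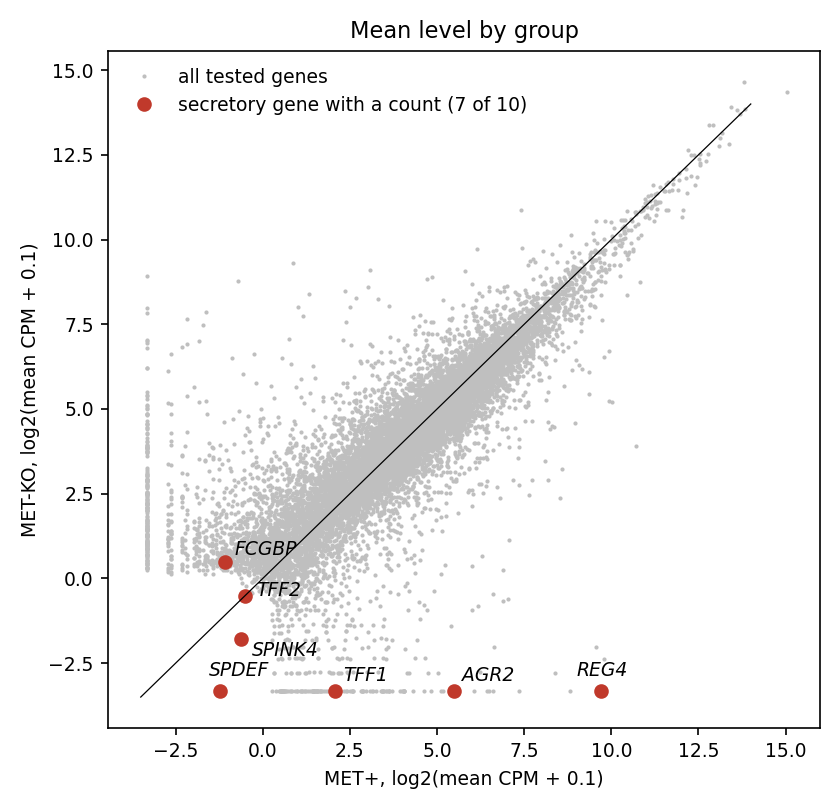
Mean level in MET+ (x axis) and MET-KO cells (y axis), each as log2(mean CPM + 0.1), for the 13801 tested genes (grey) and the 7 secretory genes with a count (red); the line marks equal levels. REG4, AGR2 and TFF1 lie on the lower edge, where MET-KO cells had 0 counts, and FCGBP lies above the line.

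The genes whose values over the 4 libraries were most like those of REG4 were S100P, AP000547.3 and CALB1. Likeness was the distance between log2 CPM profiles centred on each gene's mean, and it was 0.778, 0.912 and 1.20 on the log2 scale. S100P had 7796 and 8006 counts in MET+ and 0 and 2 in MET-KO libraries. CALB1, which encodes the calcium-binding protein calbindin, had 6404 and 7240 counts in MET+ and 3 and 0 in MET-KO libraries. With 4 libraries in 2 groups, such a likeness says that the genes share a level difference of similar size and little else.

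Whether a count of 0 could come from how reads were assigned was checked on the annotation. Over the last 300 bases of the principal transcript, no exon of another gene overlapped any of the 10 genes on either strand, and 0% of the 31-base words in that stretch occurred in transcripts of other genes. The end annotated for FCGBP is the end of its coding sequence, so its true 3' end may lie outside this stretch. A related disulfide isomerase, TXNDC12, shows the other case. Its last 300 bases were overlapped to 92.7% by a gene on the same strand, AL445685.3, and it was listed at 4 and 0 counts in MET+ and 0 and 2 in MET-KO libraries. For TXNDC5 the overlap with the BLOC1S5-TXNDC5 readthrough gene was 98.3% and the count was 0 in all 4 libraries, so low counts of these 2 genes are not read as low expression.

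The promoters of 7 of the 10 genes were found among the 35116 RefSeq promoters. All but FCGBP had a GC content below the median of all promoters, 58.0%, with 35.6% in REG4, 36.4% in AGR3, 40.4% in AGR2 and 40.8% in CLCA1, and FCGBP had 60.8%. CpG dinucleotides numbered 1 to 6 in the 7 promoters, where the median of all promoters was 11. The motif TATAAA of a TATA box began 31 bases before the start in REG4, as in the sequence printed above, 31 bases before it in AGR3 and 29 in SPINK4, and 10.7% of all promoters held it. TTTATG, bound by CDX factors, was found in REG4, AGR2 and AGR3 (9.64% of all promoters). In AGR2 this match reads CATAAA on the printed strand and begins 29 bases before the start. CAGCTG, an E-box that ATOH1 can bind, was found in AGR2 and CLCA1 (14% of all promoters).
CCGGAT, an ETS site of the kind SPDEF prefers, was found in CLCA1 and SPINK4 (5.85% of all promoters), and CCGGAA, the common ETS core, in AGR3 and SPINK4 (14.5%), the pair of matches in SPINK4 overlapping. AGGTCA, the core element of nuclear receptors such as the estrogen receptor, was found in CLCA1 and at 2 places in AGR3 (12.1%). TGTTTAC, bound by FOXA factors (2.98%), and CCACG, part of XBP1 and ATF6 sites (33.5%), were in none of the 7 promoters. A match is a string of letters and was not tested for binding.

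Neighbours of the 3 measured genes moved in different ways. Within 1 Mb of REG4, 9 other genes were tested, 1 called higher and 2 lower, with a median log2 fold change of 0.07. PHGDH, which starts serine synthesis, was lower (log2 fold change -1.41, adjusted p = 6.32e-15), and NOTCH2 on the far side of REG4 was higher (0.70, adjusted p = 3.31e-05). The neighbours named here were picked after their values were seen.
Around AGR2, all 7 tested neighbours were called higher in MET-KO cells. Their log2 fold changes ran from 0.47 to 2.77, with a median of 1.64. On chromosome 7 as a whole the median was 0.50 over 673 tested genes, of which 77.4% were above 0, so AGR2 at 0 counts lay in a stretch that was otherwise higher. Among these neighbours, AHR, the aryl hydrocarbon receptor, had a log2 fold change of 2.24 (adjusted p = 4.25e-18). Around the trefoil genes, 16 neighbours were tested, 7 higher and 5 lower, with a median of 0.46, against 0.30 for chromosome 21. TMPRSS3, a serine protease gene whose midpoint is 17.8 kb from the start of TFF1, went from 3 and 5 counts in MET+ to 84 and 106 in MET-KO libraries (log2 fold change 4.30, standard error 0.43, adjusted p = 2.00e-10), in the direction opposite to TFF1.

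**Figure D2:**
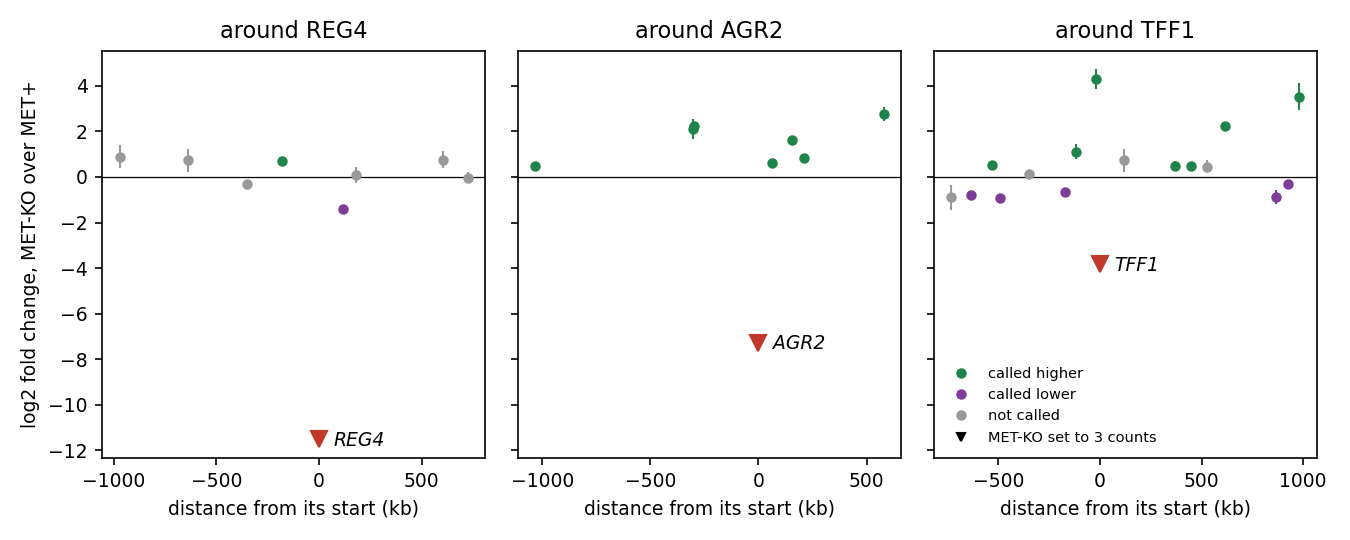
Log2 fold change (MET-KO over MET+) of tested genes within 1 Mb of REG4, AGR2 and TFF1 against the distance of their midpoints from the start of that gene, negative on its upstream side; bars are standard errors, red triangles are the 3 genes themselves with MET-KO set to 3 counts, green is called higher, purple called lower and grey not called. Of the 9 neighbours of REG4, 8 are drawn. Neighbours of AGR2 all lie above 0, and TFF1 lies below all 16 of its neighbours.

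Listed factors of intestinal cell lineages, not all of them specific to secretory cells, moved in both directions. Of 16 listed lineage factors, 12 were tested, 5 called higher and 6 lower, where 54.1% of all tested genes were called. Their median log2 fold change (MET-KO over MET+) was -0.33, where the median of all tested genes was 0.01. FOXA2, a forkhead factor of endodermal organs that acts on goblet cell genes, had 520 and 628 counts in MET+ and 10 and 15 in MET-KO libraries (log2 fold change -5.73, standard error 0.20, adjusted p = 1.95e-22). FOXA1, its close relative, had 292 and 326 counts in MET+ and 7 and 14 in MET-KO libraries (-5.09, standard error 0.25, adjusted p = 2.64e-18). Both fell, and their groups did not overlap. CREB3L1, a membrane-bound factor of the secretory pathway, fell from 46 and 86 counts in MET+ to 32 and 11 in MET-KO libraries (log2 fold change -1.81, standard error 0.37, adjusted p = 0.000112), with a log2 fold change of -2.83 without the first and -1.20 without the second MET-KO library. XBP1, the factor of the unfolded protein response that expands the secretory apparatus, fell from 1207 and 1364 to 601 and 671 counts (log2 fold change -1.24, standard error 0.10, adjusted p = 1.06e-12).
POU2F3, the factor of tuft cells, rose from 1 and 5 counts in MET+ to 97 and 144 in MET-KO libraries (log2 fold change 5.05, standard error 0.44, adjusted p = 1.04e-11), with 4.45 without the first and 6.41 without the second MET+ library. CDX2 rose as well, from 525 and 648 to 1477 and 1338 counts (log2 fold change 1.04, adjusted p = 1.93e-10). KLF4, another factor of the list, had 196 and 202 counts in MET+ and 721 and 826 in MET-KO libraries (log2 fold change 1.73, standard error 0.12, adjusted p = 4.58e-14). ATOH1, the factor that commits intestinal cells to the secretory fate, was at 0 and 0 counts in MET+ and 2 and 3 in MET-KO libraries, within the limit of 3 counts in all 4. REG4 and AGR2 were thus measured in MET+ cells in which ATOH1 was not detected and SPDEF had 6 counts in all.

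Other goblet cell products were sparse in LoVo cells, and the filter on low counts fixed the direction of most calls among them. Of 23 listed genes, 12 had 3 counts or fewer in all 4 libraries and 8 were tested, 5 called lower, 1 higher and 2 not called, where 26.9% of all tested genes were lower and 27.2% higher. The median of their log2 fold changes was -3.33, and it was -2.10 with genes at 3 counts or fewer in MET-KO cells set to that limit. MUC2, the gel-forming mucin of goblet cells, had 221 and 222 counts in MET+ and 7 and 3 in MET-KO libraries (log2 fold change -5.66, standard error 0.32, adjusted p = 9.37e-17, and -6.42 without the first MET-KO library). GCNT3, which builds branched O-glycans of mucins, had 2731 and 3338 counts in MET+ and 0 and 1 in MET-KO libraries, the largest change of the list. FFAR4, a receptor for long-chain fatty acids, had 176 and 236 counts in MET+ and 5 and 2 in MET-KO libraries (log2 fold change -6.04, adjusted p = 1.18e-16, and -6.86 without the first MET-KO library). ST6GALNAC1, which adds sialic acid to mucin glycans, had 21 and 26 counts in MET+ and 0 in both MET-KO libraries, at least 9.13-fold lower.
MUC5AC, a gastric-type mucin, had 9 and 10 counts in MET+ and 0 and 2 in MET-KO libraries, a ratio of 11.1 in MET+ over MET-KO (exact 95% interval 2.68 to 98.3). BCAS1, the gene called higher, had 2 and 4 counts in MET+ and 15 and 15 in MET-KO libraries (adjusted p = 0.00922), and it was not called by DESeq2 or when either MET-KO library was left out. ERN2, the goblet cell form of the sensor IRE1, was listed at 0 in all 4 libraries. In its case 19.3% of the 31-base words near the 3' end also occur in transcripts of other genes.

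Genes for folding in the endoplasmic reticulum, where AGR2 works, moved in both directions. Of 27 genes, 25 were tested, 8 called higher and 10 lower, so that 18 were called, where 54.1% of all tested genes were. The median log2 fold change was 0.14, and the summed level was 4382 to 4624 CPM in MET+ and 4065 to 4479 CPM in MET-KO libraries. HYOU1, a chaperone of the HSP70 group, and CANX, the lectin chaperone calnexin, fell (log2 fold changes -1.11 and -0.83, adjusted p = 1.065e-10 and 2.98e-09). CALR, the lectin chaperone calreticulin, and PDIA4, a disulfide isomerase, rose (0.89 and 0.82, adjusted p = 1.57e-09 and 7.29e-09), PDIA4 lying on chromosome 7. With scaling by library totals alone, which raised the median of all tested genes to 0.11, 9 genes of this list were called higher and 8 lower.

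Many relatives of the members by family had too few counts to test. Of 16 genes, 6 were tested, 5 called lower and 0 higher, where 26.9% of all tested genes were lower and 27.2% higher. The log2 fold changes of the 6 tested genes had a median of -6.02, or -2.64 with MET-KO counts of 3 or fewer set to that limit. SPINK5, a Kazal-type inhibitor of kallikreins, had 134 and 198 counts in MET+ and 0 and 1 in MET-KO libraries, a ratio of 388 (exact 95% interval 69.2 to 15370). SPINK6, an inhibitor of the same type, had 24 and 54 counts in MET+ and 0 and 0 in MET-KO libraries, at least 14.8-fold lower. SPINK13 had 22 and 21 counts in MET+ and 1 and 0 in MET-KO libraries. All 3 lie on chromosome 5, apart from SPINK4. EHF, an epithelial ETS factor like SPDEF, fell from 414 and 451 to 185 and 191 counts (log2 fold change -1.43, standard error 0.13, adjusted p = 4.01e-11). REG1A, REG1B, REG3A, REG3G and CLCA4 were at 0 in all 4 libraries, so REG4 was the sole REG gene of the list with a count.

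Reported binding partners of the secreted members included genes that rose and genes that fell. Of 10 genes, 5 were tested and all 5 were called, 2 higher and 3 lower, where 54.1% of all tested genes were called. LYPD3, a surface protein that AGR2 binds, had 162 and 212 counts in MET+ and 4 and 18 in MET-KO libraries (log2 fold change -4.29, standard error 0.31, adjusted p = 7.19e-14), with -3.64 without the first and -5.67 without the second MET-KO library. CXCR4, a chemokine receptor linked to TFF2, fell from 306 and 312 to 66 and 55 counts (log2 fold change -2.58, standard error 0.18, adjusted p = 4.37e-14). DAG1, the dystroglycan gene and the other surface partner of AGR2, rose from 357 and 325 to 612 and 659 counts (log2 fold change 0.66, standard error 0.12, adjusted p = 2.11e-05). CD44, a hyaluronan receptor linked to REG4, rose from 733 and 772 to 2365 and 2601 counts (log2 fold change 1.49, standard error 0.10, adjusted p = 4.92e-15). The receptors LINGO2 and LINGO3 and the TFF1 partner GKN2 were at 0 in all 4 libraries.

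Markers of other cell types were given for the same libraries, and their part in the differences above was not tested. The summed level of 6 gastric foveolar markers was 2.15 to 3.62 CPM in MET+ and 0 to 0.184 CPM in MET-KO libraries, with CTSE at 19 and 13 counts in MET+ and 0 in both MET-KO libraries, and with VSIG1 and GKN2 at 0 in all 4. That of 4 Paneth cell markers was 5.19 to 8.51 CPM in MET+ and 0.0919 to 0.294 CPM in MET-KO libraries, nearly all of it LYZ, while DEFA5 and DEFA6 were at 0. Of 7 enteroendocrine markers (3.38 to 4.46 CPM in sum in MET+, 14.25 to 14.4 CPM in MET-KO libraries), 2 were tested and moved in opposite directions, CHGB at 0 in both MET+ and 144 and 151 counts in MET-KO libraries, and INSM1 at 24 and 26 counts in MET+ and 0 in MET-KO libraries.
Of 5 stem cell markers, LGR5 and ASCL2 were called lower and AXIN2 higher, with summed levels of 94.5 to 99.0 CPM in MET+ and 96.7 to 104 CPM in MET-KO libraries. The 4 tuft cell markers summed to 0.362 to 0.717 CPM in MET+ and 1.08 to 1.66 CPM in MET-KO libraries. These sums did not overlap, but they rest on few counts, mostly of AVIL, and no difference is read from them. AVIL had 2 and 6 counts in MET+ and 10 and 17 in MET-KO libraries and was not called (log2 fold change 1.51, adjusted p = 0.0508), and TRPM5 and DCLK1 were at 0 in all 4. The 11 mesenchymal markers summed to 19.9 to 25.1 CPM in MET+ and 21.2 to 21.9 CPM in MET-KO libraries, with 3 called higher and VIM lower. The 5 immune markers summed to 0.205 to 0.603 CPM in MET+ and 0.979 to 1.93 CPM in MET-KO libraries. These did not overlap either, but also rest on few counts, mostly of LST1. LST1 was called higher, from 3 and 2 to 10 and 18 counts (log2 fold change 2.20, adjusted p = 0.00911), and PTPRC and CD3E were at 0 in all 4 libraries.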

How the data were processed

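RNA of LoVo cells was extracted with QIAzol and sequenced with the QuantSeq 3' mRNA-Seq kit (FWD). The authors deposited 1 table of raw counts per library, with 58825 Ensembl genes and 99 spike-in rows at 0 counts. The submitters' processing notes name cutadapt 1.16, STAR 2.5.4a, featureCounts 1.6.2, DESeq2 1.18.1 and the build GRCh38. The strand setting and the treatment of overlapping genes are not given in the sources used here. Names and positions came from GENCODE version 29, in which 58552 IDs matched, and promoters from RefSeq (GRCh38.p14).

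From these counts, edgeR 4.0.16 in R 4.3.3 tested MET-KO against MET+ over all genes passing filterByExpr, with TMM scaling (factors 0.949 to 1.063), the quasi-likelihood test and Benjamini-Hochberg adjustment over 13801 genes at 0.05. The script was tested on simulated data. The 10 genes and the 5 lists were chosen with earlier results of these data known, the lists from general knowledge. From each list the text names up to 4 called genes with the largest change, a mean of at least 1 CPM and groups that do not overlap, and genes fixed by name. Neighbours, BCAS1, KLF4 and some markers were named after their values were seen. Genes at 0 were given an upper limit of 3 counts per library, and ratios of low counts an exact conditional binomial interval. Alternatives were DESeq2 size factors, library totals, the Wald test of DESeq2 1.42.0, other filters, a replicate block and leaving out each library. A comparison of the proteins was not made here, and some items are not reported here.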

Additional observations from a re-analysis of the deposited data

How the results depend on the processing

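The number of called genes, 7467 in all, lay between 5760 (Wald test of DESeq2) and 7737 under the alternatives that kept all 4 libraries, and between 6289 and 7083 when each library was left out in turn. Direction and call of the 23 genes named by rule (MET and CDX2 included) were kept in all 243 refits in which they could be tested. Requiring at least 10 counts in every library, which removes genes silent in 1 group, left 1 called gene of the other goblet products and 1 of the family relatives, and none of the 10 secretory genes could then be tested. Under the other settings the goblet products had 5 (Wald test) to 9 calls (no filter) and the family relatives 4 (without the second MET+ library) to 6. BCAS1 was not called by the Wald test or without either MET-KO library. The share of genes expressed in MET+ cells and absent in MET-KO cells, 0.968% at 30 counts, was 0.487% at 100 counts and 0.418% at 300 counts, thresholds chosen after seeing the data. The lower bound for REG4 was 2741 with library totals and 2847 to 3032 without a MET-KO library. The ratio of TFF2 in MET-KO over MET+ cells turned from 1.01 to 0.321 without the second MET-KO library, which held 11 of its 13 counts there, and ranged from 0.321 to 1.66 over the libraries left out.

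Same-numbered libraries tended only weakly to deviate from their group means in opposite directions (correlation -0.279 over 4631 genes). They did not deviate together as pairs would, so the numbers were not taken as pairs. With the replicate number as a block, 7055 genes were called, and with the numbers crossed, 7737. With 2 libraries a group, an exact permutation test of a single gene cannot go below p = 0.333.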
